A study of Mus musculus with 12 samples.

Results

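The 69 genes described here are the replication-dependent histone genes of the mouse, taken as every row whose symbol begins with Hist1h, Hist2h, Hist3h or Hist4h among the 11815 rows of an expression table from sorted thymocytes. They comprise 5 H1, 20 H2A, 19 H2B, 12 H3 and 13 H4 genes. The study sorted 3 thymocyte populations from mice 4 to 5 weeks old: DP cells (thymocytes that carry both CD4 and CD8, the stage before most T cell lineages part), iNKT cells (invariant natural killer T cells, stained with a CD1d tetramer) and γδ T cells. Wild-type (WT) cells were compared with DP and iNKT cells lacking Id2 and Id3 and with γδ cells lacking Id3. Id2 and Id3 are inhibitors that bind E protein transcription factors and keep them off DNA.

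The comparisons used 11 libraries in 6 groups. WT DP (2 libraries) were sorted as TCRγδ- CD4+ CD8+ and L-DKO DP (2) were labelled as sorted CD1dTet- CD4+ CD8+, so the labels give these groups different gates, whereas the study's methods state 1 gate for both. WT iNKT (1) and L-DKO iNKT (2) were sorted as CD1dTet+ TCRβ+. WT γδ (2) and Id3KO γδ (2) were sorted as TCRγδ+ CD3+. L-DKO cells carried floxed Id2 and Id3 alleles with a Cre driven by the Lck promoter, which acts in T lineage cells, and Id3KO mice lacked Id3 in every cell. Each library pooled cells of 2 to 3 mice, on a C57BL/6 background or a hybrid of C57BL/6 and 129. The study sorted far fewer WT than mutant cells. The letters a and b follow column order within a group, because the table does not say which pool a column came from.

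A cell that copies its DNA must package it at once, and the replication-dependent histone genes supply the protein. H2A, H2B, H3 and H4 form the core particle around which DNA winds, and H1 binds the linker between particles. Their mRNAs are made mainly in S phase and, unlike nearly all other mRNAs, end in a short conserved stem-loop in place of a poly(A) tail. The stem-loop binding protein Slbp escorts them through processing and translation, and they are destroyed when replication stops. Cortical thymocytes are known for a large proliferating compartment on the way to the DP stage, followed by resting DP cells that rearrange the T cell receptor α locus. The libraries were depleted of ribosomal RNA and primed at random, so that mRNAs without poly(A) tails were retained.

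The stem-loop defines the family, and its sequence is shown for members of each class that the results below return to. It was read from the 3′ untranslated region of GENCODE vM1 transcripts (build NCBIM37), with the 16 bases of the stem-loop in capitals and 5 flanking bases on each side in lower case.
Hist1h1d: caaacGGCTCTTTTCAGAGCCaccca
Hist1h2ab: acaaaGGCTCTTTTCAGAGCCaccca
Hist1h2bg: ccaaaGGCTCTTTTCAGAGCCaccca
Hist1h3i: caaaaGGCTCTTTTCAGAGCCccctc
Hist3h2ba: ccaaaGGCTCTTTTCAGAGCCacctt
Hist1h4d: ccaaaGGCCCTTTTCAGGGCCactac
Hist1h4c: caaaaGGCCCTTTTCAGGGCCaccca

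The first 5 lines share 1 form, and the 2 H4 lines share a second form that differs in the stem only. Of 66 members with a coding transcript in that annotation, 55 had a 3′ untranslated region of at least 16 bases, and 44 of these held a stem-loop with at most 2 mismatches, 40 of them without a mismatch. All 33 that were not H4 held the first form and all 11 H4 genes held the second. A search of 42955 other transcripts that allowed no mismatch matched 3, a share of 0.00698%. The other 11 members had no match, and in 6 of them (Hist1h2ak, Hist1h2ao, Hist1h2ap, Hist1h2bb, Hist1h2bk and Hist2h3b) the annotated region was only 26 to 40 bases long. In Hist2h2be it was 2192 bases long and in Hist2h2bb 1117 bases long.

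Most members sit in 1 cluster. On GRCm38.p6, from RefSeq, 54 lay within 2219 kb of chromosome 13 (21715711 to 23934913), 10 Hist2 genes within 50.3 kb of chromosome 3 (96219885 to 96270192), 3 Hist3 genes within 6.28 kb of chromosome 11 (58948911 to 58955192), and Hist4h4 on chromosome 6 (136803993 to 136804431). Hist1h2al, which RefSeq lists as a transcribed pseudogene, lay apart on chromosome 13 (51200084 to 51203066). Hist1h2aj and Hist3h2bb-ps were also listed as pseudogenes. In 10 cases an H2A and an H2B gene were read outward from start sites 164 to 281 bases apart, such as Hist1h2ae and Hist1h2bg, 180 bases apart.

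RefSeq gave a promoter, from 250 bases before the start site to 50 after it, for 61 of the 69 members. Those of Hist1h2bg (chr13:23571150-23571449, + strand) and of Hist1h4d (chr13:23581318-23581617, + strand), the H4 gene of highest mean level, are shown because these classes carried different elements. Capitals mark CCAAT (also as ATTGG, its other strand), ATTTGCAT, TATAAA and GGTCCG, the letters searched for on both strands.
Hist1h2bg promoter: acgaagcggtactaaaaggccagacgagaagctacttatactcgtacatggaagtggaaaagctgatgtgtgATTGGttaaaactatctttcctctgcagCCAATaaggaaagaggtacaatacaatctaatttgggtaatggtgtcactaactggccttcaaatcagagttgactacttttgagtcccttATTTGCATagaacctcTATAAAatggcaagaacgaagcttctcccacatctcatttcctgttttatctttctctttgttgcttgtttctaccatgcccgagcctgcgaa
Hist1h4d promoter: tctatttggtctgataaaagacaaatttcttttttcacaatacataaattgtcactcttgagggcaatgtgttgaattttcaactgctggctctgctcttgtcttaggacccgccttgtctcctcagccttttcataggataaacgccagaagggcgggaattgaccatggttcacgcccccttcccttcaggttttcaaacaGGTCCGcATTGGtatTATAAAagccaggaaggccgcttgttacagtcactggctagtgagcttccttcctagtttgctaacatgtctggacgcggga

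CCAAT stood in 52 of the 61 promoters (85.2%), against 37.4% of all 32851 promoters in the RefSeq table. Every H1, H2A, H2B and H3 promoter searched held it, and 3 of 12 H4 promoters did. ATTTGCAT, the octamer that Oct factors bind, stood in 7 of 18 H2A and 7 of 16 H2B promoters and in no other member's, against 1.74% of all promoters. H2A and H2B genes read outward from nearby start sites have overlapping promoters, so the same octamer can be counted for both genes. The octamer printed for Hist1h2bg also lies in the promoter of Hist1h2ae. The H2A and H2B counts are therefore not of separate sites, and counts of CCAAT and TATAAA can share sites in the same way. GGTCCG stood in 11 of 12 H4 promoters, against 8.25% of all. AAACACA stood in 4 of 5 H1 promoters, against 7.18% of all. TATAAA stood in 35 of the 61 (57.4%), against 13.6% of all. These are matches of letters and were not tested as binding sites.

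The members were among the abundant mRNAs of these cells. Values are FPKM, fragments per kilobase of gene scaled to the fragments of the library, so levels of different genes are set side by side per annotated length. The lengths used are not given. Transcripts in GENCODE vM1 were 312 bases long for Hist1h4k, 2618 for Hist2h2be and 3821 for Hist1h1d. The part of length in the order of members was not tested. The mean over the 11 libraries exceeded 100 FPKM for 55 of the 69 members and had a median of 422 FPKM. H4 genes led, with Hist1h4d at 1116 FPKM, Hist1h4k at 1099 FPKM and Hist1h4c at 1085 FPKM. The lowest mean in each class was 309 FPKM for Hist1h1a, 8.89 FPKM for Hist2h2ab, 7.56 FPKM for Hist2h2be, 33.0 FPKM for Hist2h3b, and 24.3 FPKM for Hist4h4.

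Near-identical sequence limits how far single members can be read. Of the 50-base windows of each coding sequence, the length of 1 sequenced read, a median of 72.4% also stood in another member, and in 10 of 66 members every window did. The sources used here do not give how the counting divided such reads, so levels of single H2A, H2B, H3 and H4 genes are uncertain. Hist1h1a, Hist1h1b, Hist2h2bb, Hist2h2be, Hist3h2ba and Hist4h4 shared no window with another of the 66 members compared. Hist3h2bb-ps, Hist1h2aj and Hist2h3c2 had no coding transcript in the annotation used and were not compared. Untranslated regions were not compared either. The values of the members with no shared window are given below beside the family's.

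The summed level of the family was highest in L-DKO DP cells. It was 39532 and 26563 FPKM in WT DP, 59186 and 59905 FPKM in L-DKO DP, 16676 FPKM in WT iNKT and 15787 and 12430 FPKM in L-DKO iNKT. It was 25113 and 25650 FPKM in WT γδ and 24429 and 7067 FPKM in Id3KO γδ. Both L-DKO DP libraries lay above all others, both WT DP libraries above every iNKT and γδ library, and Id3KO γδ library b below every other library. In bulk RNA, fewer cells in S phase and less histone mRNA per cell cannot be told apart.

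**Figure D1:**
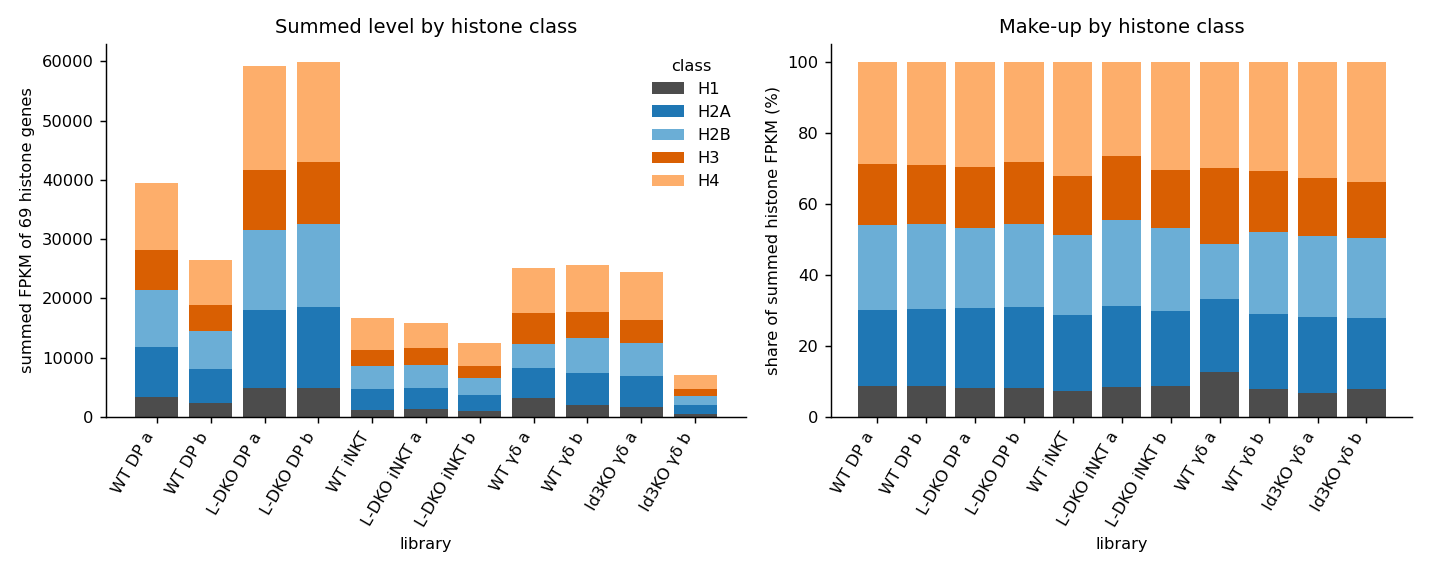
Left, FPKM summed over the 69 histone genes in each of the 11 libraries, stacked by histone class; right, the share of that sum (%) taken by each class. The L-DKO DP libraries stand highest at 59186 and 59905 FPKM and Id3KO γδ b lowest at 7067 FPKM, and the shares are alike in all libraries but WT γδ a, where H1 takes 12.7% and H2B 15.7%.

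As a share of all FPKM outside small RNA, receptor segments and predicted genes, the family took 12.5 and 8.56% in WT DP and 16.57 and 17.2% in L-DKO DP. It took 4.13% in WT iNKT, 4.35 and 3.62% in L-DKO iNKT, 7.64 and 7.14% in WT γδ, and 6.30 and 1.78% in Id3KO γδ. On this scale too, Id3KO γδ b was the lowest library and the L-DKO DP pair the highest. WT iNKT lay between the L-DKO iNKT libraries.

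The members moved together. The median correlation between pairs of members over the 11 libraries was 0.962 (Pearson, on log2 values), and 64 of 69 members correlated at 0.9 or more with the mean of the others. These points share libraries and reads, so the values are a description. The 5 members below 0.9 were Hist2h2be (0.653), Hist4h4 (0.731), Hist2h2ac (0.809), Hist2h2ab (0.879) and Hist1h2al (0.896), all 5 outside the main cluster. The order of members by level was also nearly the same in every library (Spearman 0.953 to 0.992 between pairs), except in WT γδ a.

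WT γδ library a stood apart in make-up rather than in sum. H1 took 12.7% of its histone FPKM, against 6.74 to 8.86% in the other 10 libraries. H2B took 15.7%, against 22.5 to 24.2%, and H3 took 21.3%, against 15.7 to 18.0%. Against WT γδ a, WT γδ b had all 19 H2B genes higher, with a median of 0.61 on the log2 scale, and all 5 H1 and all 12 H3 genes lower, with medians of −0.67 and −0.31. Its rank correlations with the others were 0.853 to 0.886. Results by class that involve WT γδ therefore rest on libraries that differ in class make-up.

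**Figure D2:**
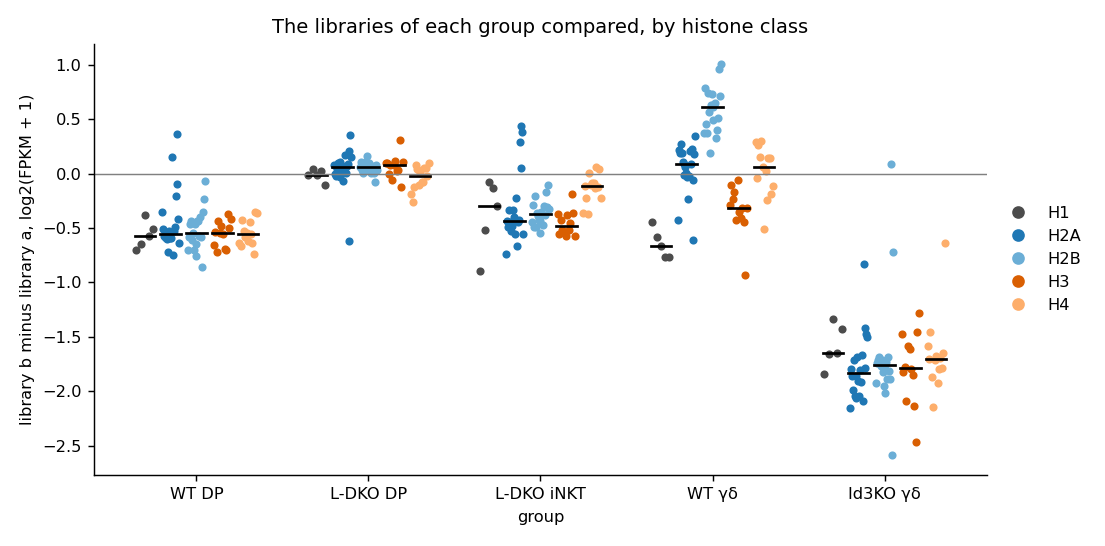
Difference between the libraries of each group, b minus a in log2(FPKM + 1), with 1 point for each histone gene, coloured by class, and a bar at each class median; WT iNKT has 1 library and is not shown. The L-DKO DP libraries lie close to 0, all classes lie below −1.6 at the median in Id3KO γδ, and in WT γδ the H2B genes lie above 0 (median 0.61) while H1 lies below it (median −0.67).

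Id3KO γδ library b held 3.46-fold less histone FPKM than library a, and 68 of 69 members were lower in b, with a median of −1.77. Hist2h2be was the exception, at 4.34 FPKM in a and 4.66 FPKM in b. The median of all rows between these libraries was 0.03. The 37 listed DNA replication genes had a median of −0.45 and the 22 listed mitosis genes a median of −0.84, with all 22 lower in b. Cd8a, a coreceptor subunit and 1 of 8 listed DP markers, was 32.0 FPKM in a and 132.8 FPKM in b. Cd4 (22.1 and 2.85 FPKM), Rag1 (29.2 and 6.36 FPKM), Rag2 (2.49 and 0.236 FPKM), Dntt (10.7 and 4.50 FPKM) and Cd8b1 (15.6 and 12.6 FPKM) were lower in b. Ptcra, at a very low level, was also higher in b (0.319 and 0.921 FPKM). The DP marker list summed to 129 FPKM in a and 165 FPKM in b. The part of a different cell mixture in this gap was not tested.

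The targeted genes matched the labels only in part. Id3 was 53.8 and 36.9 FPKM in WT DP against 6.16 and 3.09 FPKM in L-DKO DP, and 156.7 and 96.7 FPKM in WT γδ against 3.95 and 3.07 FPKM in Id3KO γδ. In L-DKO iNKT it was 30.5 and 22.8 FPKM against 42.4 FPKM in WT iNKT, so there the label rests on Id2, listed at 0 and 0.199 FPKM against 553.5 FPKM. Of the cell markers, the summed DP list (8 genes, Rag1 and Cd8b1 among them) was 3188 to 3586 FPKM in the DP libraries and 129 to 447 FPKM in the others. The summed γδ list (6 genes measured) was 1379 to 2070 FPKM in the γδ libraries, 2.14 to 9.55 FPKM in the DP libraries, 736 FPKM in WT iNKT and 13.3 and 44.7 FPKM in L-DKO iNKT. The summed iNKT list (5 genes measured) was 740 FPKM in WT iNKT but only 286 and 372 FPKM in L-DKO iNKT. It was 562 and 393 FPKM in Id3KO γδ, 174 and 131 FPKM in WT γδ and 41.2 to 48.3 FPKM in the DP libraries. The 5 erythroid genes measured summed to 117 FPKM in WT iNKT, 3.47 and 35.1 FPKM in L-DKO iNKT and 22.4 to 98.4 FPKM elsewhere. The 1 B cell gene measured stayed at 11.6 FPKM or less, and the 3 myeloid genes summed to 63.8 and 107 FPKM in WT γδ and at most 30.5 FPKM elsewhere.

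In DP cells, which the study compared to ask what Id2 and Id3 loss does before lineage choice, histone genes of every class were higher in L-DKO. The H4 gene Hist1h4d was 1497 and 1036 FPKM in WT DP and 2142 and 2263 FPKM in L-DKO DP. The H3 gene Hist1h3i was 1305 and 803 FPKM in WT DP and 2092 and 2135 FPKM in L-DKO DP. The groups did not overlap for either gene. The L-DKO pools lay close together, while the WT pools differed 1.49-fold in summed histone FPKM.

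Across the family, the L-DKO libraries both lay above both WT libraries for 67 of 69 members, against 31.3% of all rows. The median difference was 0.85 on the log2(FPKM + 1) scale, a 1.80-fold ratio, against 0.04 for all rows. None of the members passed the threshold in limma (two-sided, Benjamini-Hochberg over 11815 rows), where 0.178% of all rows did. In all, 6 members had an unadjusted p under 0.05 (all rows, 11.3%), and the lowest adjusted p was 0.16, for Hist2h2aa1. For no member was the difference separated by this test from the spread between libraries, which is pooled over all 6 groups and not that of DP libraries alone. From library a to b, the median member difference was −1.77 in Id3KO γδ, −0.55 in WT DP and 0.05 in L-DKO DP. The median difference of L-DKO DP from WT DP was 1.12 without WT DP a and 0.58 without WT DP b. The numbers of cells sorted, the gates if they were as labelled, and the genotype differ together between these groups and cannot be told apart. The WT samples are titled B6, and strain background, where it differs between WT and mutant, cannot be told apart from genotype either. Cell numbers and genotype also differ together between WT and mutant iNKT cells and between WT and mutant γδ cells.

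The 3 largest differences in DP cells were in members outside the main cluster. Hist1h2al was 98.5 and 109 FPKM in WT DP and 405 and 414 FPKM in L-DKO DP (difference 1.97, SE 0.48, limma adjusted p = 0.21). Hist2h2bb was 278 and 153 FPKM in WT DP and 548 FPKM in each L-DKO DP library (1.41, SE 0.56, adjusted p = 0.41). Hist2h2aa1 was 23.2 and 20.01 FPKM against 52.9 and 56.4 FPKM (1.30, SE 0.27, adjusted p = 0.16). All 3 lay apart between the groups without passing the threshold. Hist1h2an (1.22) and Hist1h2aa (1.20), an H2A gene known for expression in testis, followed.

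Hist2h2be was the only member lower in both L-DKO DP libraries (all rows, 23.9%). Its product is an H2B variant known from olfactory neurons of the mouse. It was 18.1 and 14.01 FPKM in WT DP and 9.72 and 9.13 FPKM in L-DKO DP (−0.70, SE 0.31, adjusted p = 0.44 in limma). The other 5 members with no shared window were higher in L-DKO DP, and the median of the 6 was 0.82. Hist2h2ac was the 1 member whose groups overlapped, at 125 and 92.7 FPKM in WT DP against 122 and 157 FPKM in L-DKO DP.

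**Figure D3:**
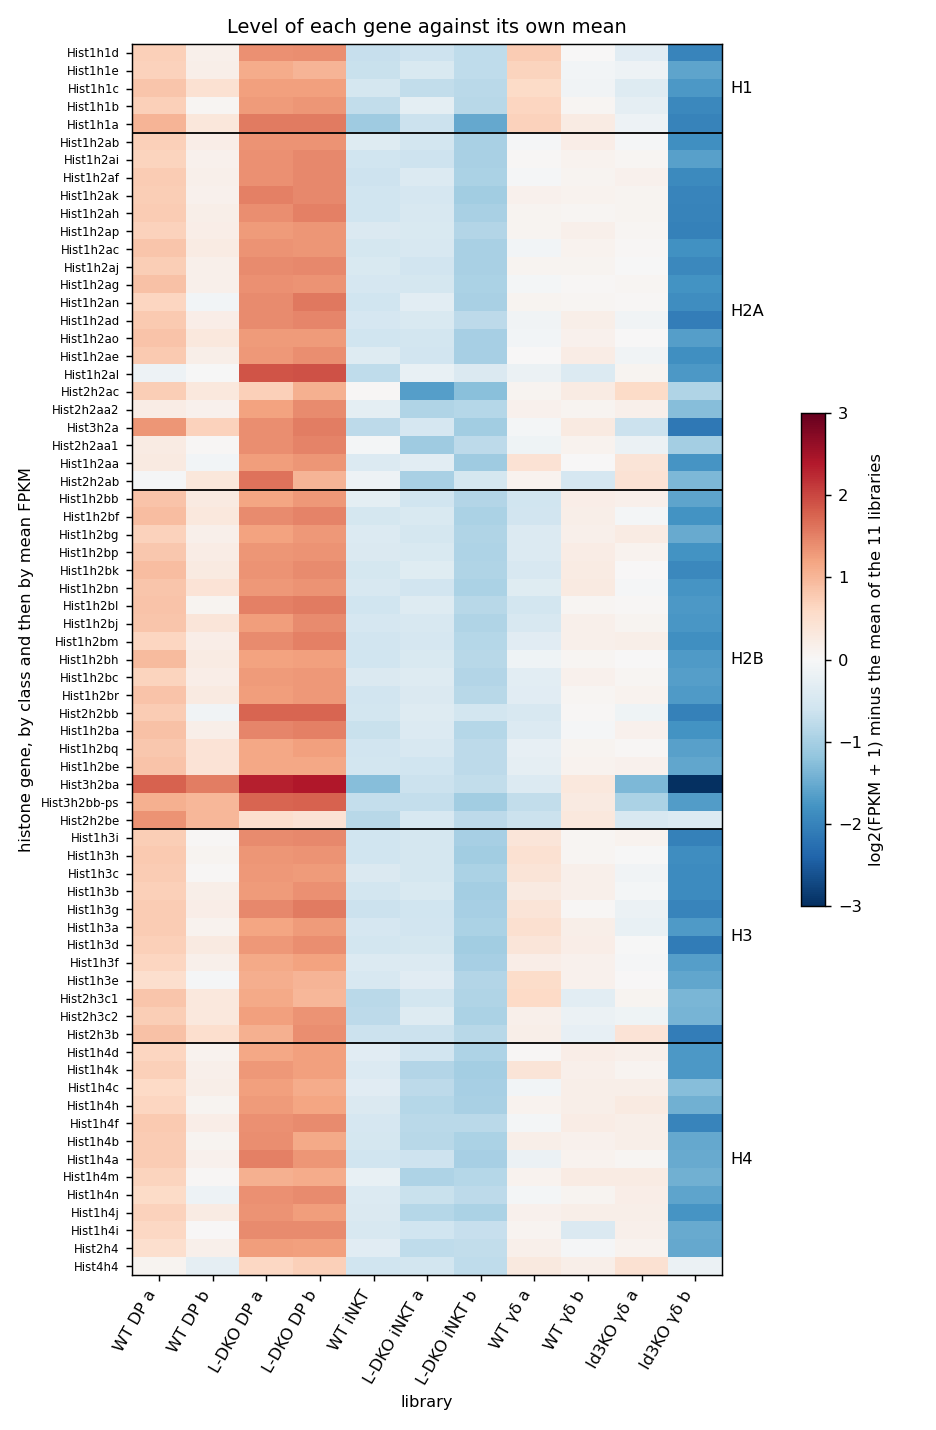
Level of each of the 69 histone genes in the 11 libraries, as log2(FPKM + 1) minus the gene's mean over all libraries, grouped by class and ordered by mean FPKM within a class. The L-DKO DP columns are red for nearly every gene, Id3KO γδ b is blue for nearly every gene, and Hist2h2be and Hist4h4 depart from the common pattern.

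Taken as lists, other genes of the cell cycle differed less in DP cells. The DNA replication list summed to 977 and 828 FPKM in WT DP and 1227 and 1149 FPKM in L-DKO DP, and its 37 genes had a median difference of 0.30, with none past the threshold. The mitosis list of 22 genes summed to 915 and 698 FPKM against 922 and 882 FPKM, overlapping, with a median of 0.17 and none past it. In the replication list 35 of 37 genes were positive, and single genes could differ more than the median. E2f2, a transcription factor gene of that list, was 67.9 and 60.1 FPKM in WT DP and 126.5 and 119.3 FPKM in L-DKO DP. Summed histone FPKM over summed replication FPKM was 40.5 and 32.1 in WT DP and 48.2 and 52.1 in L-DKO DP, so the groups did not overlap on this ratio either. The 41 small RNAs without poly(A) tails had a median of 1.35, with none past the threshold. Their part, and that of the recovery of untailed RNA, in the histone difference was not tested.

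Histone variants listed as replication-independent had a median of 0.38 over the 10 measured of 11 listed, with none past the threshold. H3f3a, which encodes H3.3, was 210.1 and 170.3 FPKM in WT DP and 307.6 and 319.2 FPKM in L-DKO DP. H2afz was 143.6 and 97.8 FPKM against 217.6 and 197.7 FPKM. Both were apart between the groups by sizes close to those of the replication-dependent genes (0.73 and 0.80), with adjusted p of 0.42 for H3f3a. Of 14 measured genes for histone mRNA transcription, processing and decay, none passed the threshold, and the median was 0.05. Slbp was 55.3 and 53.9 FPKM in WT DP and 72.2 and 69.2 FPKM in L-DKO DP, while Npat, the activator of histone gene transcription, was 13.4 and 15.4 FPKM against 12.01 and 12.7 FPKM.

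**Figure D4:**
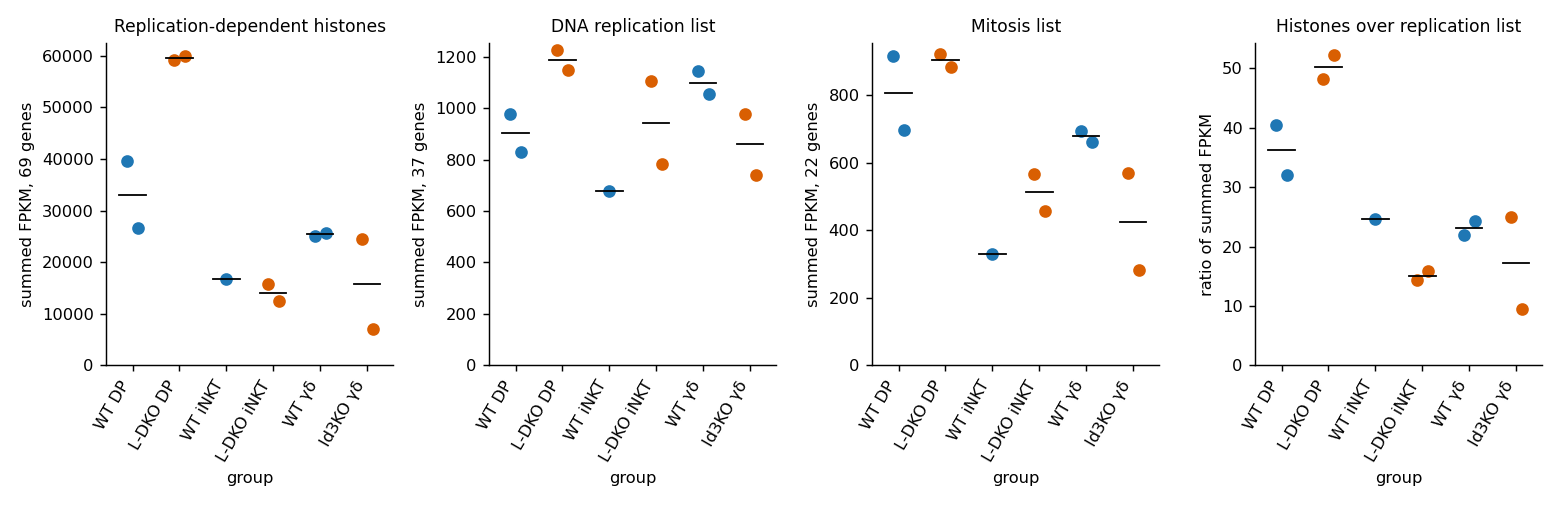
FPKM summed over the histone genes (69), the DNA replication list (37) and the mitosis list (22), and the ratio of the first to the second sum, with 1 point for each library (WT blue, mutant orange) and a line at each group mean. The histone sum and the ratio separate WT DP from L-DKO DP, the ratio is lower in L-DKO iNKT (14.3 and 15.9) than in WT iNKT (24.6), and the mitosis sums of the DP groups overlap.

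In iNKT cells, compared to ask what the same loss does within that lineage, histone levels of mutant and WT were close. Hist1h4d was 761 FPKM in WT iNKT and 648 and 502 FPKM in L-DKO iNKT. Hist1h3i was 514 FPKM in WT iNKT and 540 and 393 FPKM in L-DKO iNKT, with the WT value between the mutant ones. WT iNKT has 1 library, so its spread was taken from the other groups.

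No member passed the threshold between L-DKO iNKT and WT iNKT (6.07% of all rows did), and 2 had an unadjusted p under 0.05 (18.7% of all rows). The median member difference was −0.19, against −0.07 for all rows, with 59 members negative and 10 positive. The sign of the member median depended on the processing: it was 0.067 after quantile normalization, 0.78 after scaling to the same total and 0.021 without L-DKO iNKT b. Both L-DKO iNKT libraries lay below WT iNKT for 32 members (all rows, 44.1%) and above it for 3 (all rows, 31.5%). The largest was Hist2h2ac, at 75.9 FPKM in WT iNKT and 23.0 and 30.4 FPKM in L-DKO iNKT (−1.49, SE 0.53, limma adjusted p = 0.17). Hist2h2aa1, also in the Hist2 cluster, was 18.8 FPKM against 8.78 and 10.97 FPKM (−0.87, SE 0.34, adjusted p = 0.21). Hist1h4m (−0.65) and Hist2h2aa2 (−0.59) also fell short of the threshold. So did Hist3h2ba, which was higher in the mutant (0.59), at 9.18 FPKM in WT iNKT and 14.9 and 13.7 FPKM in L-DKO iNKT. H4 genes had the lowest class median (−0.42) and H1 genes one near 0 (−0.01).

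Most replication and mitosis genes had positive differences in iNKT cells. The replication list had a median of 0.36, with 33 of 37 genes positive and 2 past the threshold. These were Ccne1, the cyclin that drives entry into S phase, which rose from 6.93 FPKM to 21.8 and 19.8 FPKM (1.46, SE 0.25, limma adjusted p = 0.016), and E2f2, an S phase transcription factor, which rose from 8.98 FPKM to a mean of 39.7 FPKM (2.03, SE 0.38, adjusted p = 0.023). All 22 mitosis genes were positive, with a median of 0.57, and none passed. Histone FPKM per replication FPKM was 24.6 in WT iNKT and 14.3 and 15.9 in L-DKO iNKT. Slbp was 68.0 FPKM in WT iNKT against 52.7 and 40.7 FPKM in L-DKO iNKT (−0.55), without passing the threshold.

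In γδ cells, compared to ask what Id3 loss does there, the family's difference rested on 1 library. Hist1h4d was 985 and 1092 FPKM in WT γδ and 1064 and 290 FPKM in Id3KO γδ. Hist1h1d, a linker histone gene, was 1035 and 608 FPKM in WT γδ and 479 and 152 FPKM in Id3KO γδ. The Id3KO libraries thus lay on both sides of a WT value for Hist1h4d, and below both for Hist1h1d.

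All 69 members had a lower mean in Id3KO γδ, with a median of −0.85 (all rows, −0.08), and 25 of them were lower in both mutant libraries (all rows, 32.6%). Of the 69, 1 passed the threshold, against 8.35% of all rows that fell. Without Id3KO γδ b the median was 0.02 and no member passed. Without Id3KO γδ a the median was −1.78 and 61 members passed. With all libraries, 13 had an unadjusted p under 0.05 (31.8% of all rows).

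The member that passed was Hist3h2ba, the H2B gene of the Hist3 cluster, at 17.7 and 29.7 FPKM in WT γδ and 8.65 and 0.604 FPKM in Id3KO γδ. It fell by 2.61 (SE 0.69, limma adjusted p = 0.043), in both mutant libraries. This call was lost in 11 of 19 alternatives, whose adjusted p ran from 0.0014 to 0.15. Hist3h2a, in the same cluster, was 29.7 and 37.9 FPKM in WT γδ and 19.5 and 6.27 FPKM in Id3KO γδ (−1.50, below the WT libraries but not past the threshold). H1 had the lowest class median (−1.45) and H2B the highest (−0.71), and the class make-up of WT γδ a moves with this order, in which its part was not tested.

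Around these genes, replication genes had a median of −0.44 in Id3KO γδ and mitosis genes one of −0.63, with 21 of 22 negative. Cenpf, a kinetochore gene, was the 1 mitosis gene past the threshold (−0.97, SE 0.22, limma adjusted p = 0.024). In the replication list Ccne1 rose (1.07, SE 0.20, adjusted p = 0.014) and E2f2 fell (−1.25, SE 0.31, adjusted p = 0.034). Ccnd3, a D-type cyclin, was 217.2 and 229.9 FPKM in WT γδ and 95.8 and 92.1 FPKM in Id3KO γδ (−1.24, SE 0.17, adjusted p = 0.0046), alike in both mutant libraries although their histone levels differed. The 41 small RNAs rose in 18 cases in this comparison, with a median of 2.27, the opposite direction to the histones.

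**Figure D5:**
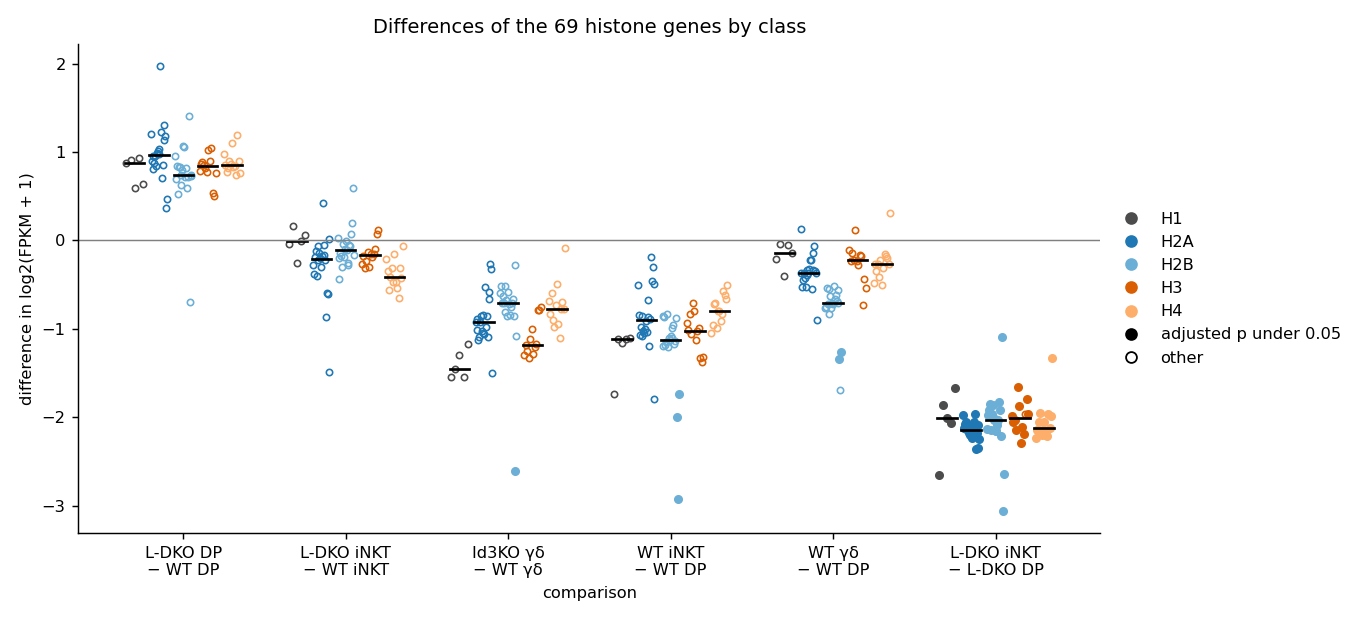
Difference in log2(FPKM + 1) of each of the 69 histone genes in 6 comparisons, coloured by class, with a bar at each class median and filled points for limma adjusted p under 0.05. Differences centre on 0.85 for L-DKO DP against WT DP, on −2.09 for L-DKO iNKT against L-DKO DP, where 68 points are filled, and few points are filled in the other comparisons.

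Between the WT lineages, DP cells had the highest histone levels, γδ cells came next and iNKT cells were lowest. Hist1h2ab, an H2A gene, was 701 and 491 FPKM in WT DP, 419 and 488 FPKM in WT γδ and 327 FPKM in WT iNKT. Hist1h2bg was 778 and 531 FPKM in WT DP, 361 and 535 FPKM in WT γδ and 362 FPKM in WT iNKT. Neighbours in this order did not differ beyond their spread for Hist1h2bg, where WT γδ spanned the gap.

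All 69 members were below both WT DP libraries in WT iNKT (all rows, 37.1%), with a median of −0.997 against 0.11 for all rows. Of these, 3 passed the threshold (all rows, 8.73% lower), and 6 had an unadjusted p under 0.05 (all rows, 37.8%). Hist3h2ba was 82.6 and 70.3 FPKM in WT DP and 9.18 FPKM in WT iNKT, and fell by 2.92 (SE 0.85, limma adjusted p = 0.040). Hist2h2be was 3.24 FPKM in WT iNKT and fell by 2.00 (SE 0.37, adjusted p = 0.0071). Hist3h2bb-ps was 37.1 and 35.4 FPKM in WT DP and 10.2 FPKM in WT iNKT, and fell by 1.74 (SE 0.43, adjusted p = 0.023). All 3 are H2B sequences outside the main cluster. Without WT DP a or WT DP b 1 member passed, without either Id3KO γδ library 23 did, and the call for Hist3h2ba was lost in 9 of 18 alternatives.

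WT γδ were lower than WT DP by a median of −0.37, while all rows had a median of 0.11, and 37 members were below both DP libraries (all rows, 24.5%). Hist2h2be, at 3.80 and 8.34 FPKM in WT γδ, fell by 1.34 (SE 0.31, limma adjusted p = 0.019), and Hist3h2bb-ps, at 9.95 and 21.1 FPKM, fell by 1.26 (SE 0.35, adjusted p = 0.041). These were the 2 members past the threshold (all rows, 6.03% lower), and neither passed without WT DP a, WT DP b or WT γδ a. Hist4h4 was the highest difference (0.31), at 24.5 and 18.9 FPKM in WT DP and 28.2 and 25.9 FPKM in WT γδ. Between WT γδ and WT iNKT no member passed (2.78% of all rows did), 1 had an unadjusted p under 0.05 (all rows, 18.2%), the median was 0.56 and 63 members were above the iNKT library (all rows, 36%).

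Replication genes also differed between DP and γδ cells. From WT DP to WT γδ the helicase subunits Mcm3, Mcm4, Mcm5 and Mcm6 rose, Mcm6 from a mean of 40.5 to 90.0 FPKM (1.14, SE 0.20, limma adjusted p = 0.0071), while Gins2 and E2f2 fell. Over the list, 30 of 37 genes were positive, with a median of 0.32 and 5 risen. Histone FPKM per replication FPKM was 21.97 and 24.3 in WT γδ, below 40.5 and 32.1 in WT DP. From WT DP to WT iNKT all 22 mitosis genes were negative, with a median of −1.22 and 10 past the threshold, and Mki67, a proliferation marker, was 85.4 and 65.6 FPKM against 31.3 FPKM.

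The largest difference of the family was within the mutant mice, between L-DKO iNKT and L-DKO DP. Hist1h4d was 2142 and 2263 FPKM in L-DKO DP and 648 and 502 FPKM in L-DKO iNKT (−1.95, SE 0.52, limma adjusted p = 0.030). Hist1h3i was 2092 and 2135 FPKM against 540 and 393 FPKM (−2.20, SE 0.60, adjusted p = 0.033). Hist1h1d was 1556 and 1583 FPKM against 391 and 357 FPKM (−2.07, SE 0.50, adjusted p = 0.021). The groups lay far apart in all 3 genes, by about the same ratio.

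All 69 members were lower in both L-DKO iNKT libraries (all rows, 34.6%), and 68 passed the threshold, against 10.8% of all rows that fell. The median was −2.09, a 4.24-fold decrease, while the median of all rows was −0.01. All 5 class medians lay between −2.14 (H2A) and −2.01 (H1 and H3). Hist2h3b, at 57.9 and 72.0 FPKM against 16.998 and 14.8 FPKM, was the member that did not pass (−1.96, SE 0.66, adjusted p = 0.067). The count of calls was 5 without L-DKO DP a, 3 without L-DKO DP b, 19 without L-DKO iNKT a and 5 without L-DKO iNKT b, while the medians stayed between −2.25 and −1.90.

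All 6 members with no shared window passed here, with a median of −2.04. Hist3h2ba had the largest difference, from 123 and 130 FPKM in L-DKO DP to 14.9 and 13.7 FPKM in L-DKO iNKT (−3.06, SE 0.69, limma adjusted p = 0.016). Hist1h1a fell by 2.65 (SE 0.57, adjusted p = 0.013) and Hist3h2bb-ps by 2.64 (SE 0.35, adjusted p = 0.0017). Hist2h2be (fell by 1.10) and Hist4h4 (fell by 1.33) had the smallest differences of the family. The 44 members with a stem-loop had a median of −2.11 and the 11 with none in their annotated region one of −1.97, over ranges that overlap.

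The replication list differed less than the histones. It summed to 1104 and 781 FPKM in L-DKO iNKT against 1227 and 1149 FPKM in L-DKO DP, with a median of −0.17 and 3 of 37 genes (E2f2, Rrm2 and Gins2) past the threshold, all lower. Histone FPKM per replication FPKM was 48.2 and 52.1 in L-DKO DP and 14.3 and 15.9 in L-DKO iNKT, a 3.32-fold ratio of the means. The mitosis list had a median of −0.75, with 6 of 22 past the threshold. Slbp fell by 0.60 (SE 0.17, limma adjusted p = 0.041) and Ccnd3 fell by 2.01 (SE 0.17), whereas Ccnd2, another D-type cyclin, rose from a mean of 1.18 to 74.0 FPKM.

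Among variants in the same comparison, H3f3b (fell by 1.39, SE 0.25, limma adjusted p = 0.0058), H2afv (fell by 1.43) and H1fx (fell by 1.63) passed the threshold, and the median of 10 was −0.67. H3f3b was 522.7 and 479.1 FPKM in L-DKO DP and 222.0 and 164.0 FPKM in L-DKO iNKT. The 41 small RNAs had a median of −1.20, with 4 lower and none higher past the threshold. Their part in the histone difference was not tested.

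The effects of Id loss in the 3 lineages were set against each other by interaction terms. Id3KO γδ cells came from mice lacking Id3 in every cell, whereas L-DKO cells lost Id2 and Id3 through Lck Cre. In the terms with γδ cells, lineage and the kind of Id loss therefore cannot be told apart. The effect in γδ minus that in DP had a median of −1.78 over members (all rows, −0.11), 68 of 69 being negative, with none past the threshold (all rows, 2.52%) and 43 at an unadjusted p under 0.05 (all rows, 19.3%). The lowest adjusted p was 0.050, just above the threshold, for Hist2h2aa1 (−1.89, SE 0.39, limma). Without Id3KO γδ a 63 members passed, and without Id3KO γδ b 1 did, with a median of −0.87.

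The effect in iNKT minus that in DP had a median of −1.08, with none past the threshold (all rows, 1.73%) and 3 at an unadjusted p under 0.05 (all rows, 15.9%). Hist2h2aa1 had the lowest adjusted p (0.056, −2.17, SE 0.43, limma), and Hist2h2be was the 1 positive member (0.90). The effect in iNKT minus that in γδ had a median of 0.68, with none past the threshold (all rows, 6.6%) and 1 at an unadjusted p under 0.05 (all rows, 24.1%), and its largest value was that of Hist3h2ba (3.20, SE 1.10, adjusted p = 0.13). Without Id3KO γδ a, 3 members passed in the first of these comparisons and 11 in the second, and without Id3KO γδ b 3 and 1 did, with a median of −0.22 in the second.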

How the data were processed

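RNA of sorted thymocytes was sequenced as stranded paired-end libraries after removal of ribosomal RNA with RNase H. Tools listed in the submitters' processing notes were Cufflinks 2.2.0, TopHat2 2.0.9 and Trimmomatic 0.32, with the builds mm10 and GRCm38. The sources used here give neither the annotation nor whether strand was used in counting. The table deposited by the authors holds FPKM on a log2 scale (0 to 16.7), read as log2(FPKM + 1). FPKM depends on what else fills a library, depth is unknown, and no count could be recovered. The authors' 5 columns of means and 3 of fold changes were not used. Of 12 labelled samples, 1 WT iNKT library, dropped by the authors because of its quality, was not analysed here.

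Members were all rows whose symbol begins Hist1h to Hist4h. All 11815 rows were fitted with limma 3.58.1 in R 4.3.3, with 6 group means, 1 spread shared by all groups (5 residual degrees of freedom, prior 2.87), two-sided tests and Benjamini-Hochberg adjustment over all rows at 0.05. Fold changes are on the log2(FPKM + 1) scale and understate those of low genes. WT iNKT, with 1 library, is assumed to vary like the other groups. Replicates are pools, and p-values measure the spread between them. The test was tried on simulated data. Sums are of FPKM and were not tested. Promoters and coordinates came from RefSeq (GRCm38.p6), matched by symbol for all 69 members, and stem-loops from GENCODE vM1 transcripts.

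Genes were named by this rule: in each class the 3 highest and the lowest by mean FPKM; in each comparison up to 5 rises and 5 falls past the threshold, or else the 5 largest differences among members whose higher group averaged 10 FPKM or more; and members outside the main cluster. Other names were chosen after their values were seen, as were the printed sequences. The members and all lists were chosen with earlier results of these data known. Alternatives were a pseudocount of 0.1, rows with at least 5 FPKM, quantile normalization, 3 scalings, a prior with a trend, a fit of the compared groups alone and each library left out; leaving out libraries from the sums was added after seeing the data.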

Additional observations from a re-analysis of the deposited data

Results flagged for a closer look

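On the deposited scale, the difference between mutant and WT in summed histone FPKM had opposite signs in different lineages, with every mutant library on 1 side of every WT library in each lineage. Summed histone FPKM was 1.80-fold that of WT in L-DKO DP, but 0.620-fold in Id3KO γδ and 0.846-fold in L-DKO iNKT. The iNKT direction depended on the scaling: the ratio was 1.67 after scaling to the same total, and as a share of FPKM outside small RNA, segments and predicted genes WT iNKT (4.13%) lay between the L-DKO iNKT libraries (4.35 and 3.62%). The γδ ratio was 0.962 without Id3KO γδ b and 0.278 without Id3KO γδ a. Summed H1 FPKM was 1.70-fold that of WT in DP and 0.424-fold in γδ, and summed H3 FPKM was 1.82-fold in DP and 0.524-fold in γδ. H1 and H3 had their highest shares of all libraries in WT γδ a (12.7 and 21.3%), whose part in these γδ ratios was not tested. Summed H1 FPKM was 3199 and 1997 in WT γδ and 1646 and 557 in Id3KO γδ. Summed H3 FPKM was 5340 and 4363 in WT γδ and 3977 and 1108 in Id3KO γδ. Summed H4 FPKM was 1.81-fold in DP and 0.744-fold in iNKT. Histone FPKM per replication FPKM was 1.38-fold in DP and 0.613-fold in iNKT. These differences between lineages were not tested, since each is a sum over members.

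Of the 69 members, 25 lay in opposite directions in DP and γδ cells in every library of both groups (all rows, 10.9%), and 32 did so in DP and iNKT cells (all rows, 19.9%). Both counts exceed those shares mainly through the DP side, where 67 members lay above WT (all rows, 31.3%). Below WT lay 25 members in γδ cells (all rows, 32.6%) and 32 in iNKT cells (all rows, 44.1%), close to the shares of all rows. The interaction terms, which test the difference between these mutant effects for each member, called none in limma. Against γδ cells, lineage and the kind of Id loss (Id3 alone, or Id2 and Id3) differ together and cannot be told apart.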

How the results depend on the processing

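No paired analysis was possible because the columns carry no replicate numbers. Depth is unknown, so precision rests on groups of 1 or 2 libraries. The direction of the median member difference was kept in every alternative for L-DKO DP against WT DP, WT iNKT against WT DP, WT γδ against WT DP, WT γδ against WT iNKT, L-DKO iNKT against L-DKO DP and the effect in γδ minus that in DP. Where a value below moved for a reason other than fewer samples, the cause was not tested.

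Scaling to the same total shifted the median of all rows. That median became 0.80 for L-DKO iNKT against WT iNKT, −0.73 for WT iNKT against WT DP, −0.43 for WT γδ against WT DP, −0.30 for L-DKO DP against WT DP and 1.09 for the effect in iNKT minus that in DP. The member medians became 0.78 for L-DKO iNKT against WT iNKT, −1.94 for WT iNKT against WT DP, 0.27 for the effect in iNKT minus that in DP and 1.501 for the effect in iNKT minus that in γδ. Relative to all rows they were −0.02, −1.21, −0.82 and 0.76. In L-DKO iNKT against WT iNKT, Hist1h4m (0.33), Hist2h2aa1 (0.041) and Hist2h2aa2 (0.36) changed sign. The calls became 67 for WT iNKT against WT DP, 9 for WT γδ against WT DP, 1 for the effect in iNKT minus that in DP and 3 for the effect in iNKT minus that in γδ. Ratios of summed FPKM became 1.67 for L-DKO iNKT to WT iNKT, 0.265 for WT iNKT to WT DP, 0.517 for WT γδ to WT DP and 0.314 for L-DKO iNKT to L-DKO DP. With small RNA, segments and predicted genes left out of the total, Id3KO γδ against WT γδ had 4 calls and WT iNKT against WT DP 5.

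Quantile normalization gave 14 calls for Id3KO γδ against WT γδ and 6 for WT iNKT against WT DP, with medians of −0.35 for the effect in iNKT minus that in DP and 1.34 for the effect in iNKT minus that in γδ. With a pseudocount of 0.1, Id3KO γδ against WT γδ had 0 calls and WT γδ against WT DP 1. With rows of at least 5 FPKM, the effect in γδ minus that in DP had 1 call. A prior with a trend gave 1 call for each of the effects in iNKT and γδ minus that in DP. A fit of the compared groups alone gave 1 call for L-DKO DP against WT DP, 0 for Id3KO γδ against WT γδ, 1 for WT γδ against WT DP, 2 for WT γδ against WT iNKT and 2 for the effect in iNKT minus that in DP.

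Leaving out each library in turn gave 0 to 1 calls for L-DKO DP against WT DP, 0 to 1 for L-DKO iNKT against WT iNKT, 0 to 61 for Id3KO γδ against WT γδ, 1 to 23 for WT iNKT against WT DP, 0 to 3 for WT γδ against WT DP and 3 to 69 for L-DKO iNKT against L-DKO DP. The effect in iNKT minus that in DP had 0 to 3 calls, the effect in γδ minus that in DP 0 to 63 and the effect in iNKT minus that in γδ 0 to 11. Medians ran from −1.78 to 0.021 for Id3KO γδ against WT γδ, from −2.62 to −0.87 for the effect in γδ minus that in DP and from −0.22 to 1.54 for the effect in iNKT minus that in γδ. The highest counts came without an Id3KO γδ library, the pair with the widest gap in histone level, also in comparisons that do not involve it, in fits where all groups share 1 estimate of the spread. Leaving libraries out of the sums was added after seeing the data.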
